A study of Mus musculus with 10 samples.

Results

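The expression of 9 genes that mark homeostatic microglia, the resident immune cells of the undisturbed brain, was followed in the hippocampus of mice whose meningeal lymphatic vessels had been ablated. The 9 genes (Cx3cr1, P2ry12, Tmem119, Csf1r, Aif1, Siglech, Trem2, Tyrobp and Sall1) were taken by name from a list of microglia markers, and all 9 were found among the 28871 genes of the deposited count table, in all 10 samples. The 5 Visudyne samples (sample numbers 3, 6, 9, 12 and 15) came from male wild-type C57BL/6J mice, 2 months old, in which Visudyne, a verteporfin preparation, was placed in the cisterna magna and converted by 689 nm red light shone on the intact skull. The 5 vehicle samples (sample numbers 1, 4, 7, 10 and 13) came from mice of the same sex, strain, genotype and age that received vehicle and the same light. Both groups underwent the procedure again 2 weeks later, and the whole hippocampus was taken 2 weeks after the final procedure, so that the light, the injection and the repeat were common to both. No group received Visudyne without light. The labels do not say whether each sample is a separate animal, so the p-values measure the spread between these samples, which may in part be technical.

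Microglia enter the brain early in development and maintain themselves there through signalling from the receptor CSF1R, which binds the cytokines CSF1 and IL-34. In the healthy brain they survey their surroundings with motile processes, guided among other signals by purines acting on P2RY12 and by the neuronal chemokine fractalkine (CX3CL1) acting on CX3CR1. When microglia respond to injury or amyloid, homeostatic genes such as P2ry12, Tmem119 and Cx3cr1 are typically lowered while genes of the TREM2-dependent, disease-associated state are raised.

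In the bulk hippocampus the 9 markers were nearly level between the groups. None of the 9 passed edgeR's quasi-likelihood test with Benjamini-Hochberg adjustment over all 19093 genes tested (adjusted p = 0.9999 for each), where 0.0210% of all genes tested were called. None had an unadjusted p under 0.05, a level reached by 1.70% of all genes, and in none did the Visudyne and vehicle samples separate without overlap, as they did for 0.435% of all genes. The fitted difference was positive for 5 markers and negative for 4, with a median log2 fold change of 0.0068, against 0.0022 over all genes tested. The median depended on Vehicle 1 and on the model: it was 0.12 with 7 of 9 positive without Vehicle 1, and 0.090 with 7 of 9 positive with a covariate for sample number, and no marker was called in either. In each of these 2 settings 1 marker had an unadjusted p under 0.05, and the share of all genes at that level there was not counted. For 8 of the 9 markers the 95% intervals together spanned only 0.781-fold to 1.25-fold. Tyrobp was the exception, with an interval of 0.255-fold to 2.40-fold. Its estimated counts ran from 4 to 261 across the 10 samples. In whole-tissue RNA, fewer cells of a type and less RNA per cell cannot be told apart, and a level in these data is that of the tissue.

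Libraries held 51165271 to 68895223 estimated counts, without a difference between the groups that the exact permutation test could detect (two-sided p = 0.516, n = 5 each, smallest p possible 0.00794). Mitochondrial transcripts made up 20.7% ± 0.846 of the counts in Visudyne samples and 22.3% ± 1.36 in vehicle samples (SD, n = 5 each, exact permutation p = 0.0714). Genes typical of hippocampal fields were present in every sample: Prox1 of dentate granule cells at 90.0 to 117 CPM in Visudyne and 96.5 to 115 CPM in vehicle samples, and Fibcd1 of field CA1 at 118 to 135 and 102 to 145 CPM in the same groups. CPM is the usual library-scaled count, here scaled with edgeR's TMM factors. The 9 markers together made up 161 to 191 CPM in Visudyne samples (median 173) and 154 to 189 CPM in vehicle samples (median 171).

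The markers lie on 7 chromosomes (mm10 coordinates of the GENCODE vM21 gene annotation). The surface receptors were Csf1r (ENSMUSG00000024621, placed further on), Cx3cr1 (ENSMUSG00000052336, chr9:119901616-120069879, minus strand), P2ry12 (ENSMUSG00000036353, chr3:59216272-59262871, minus strand), Siglech (ENSMUSG00000051504, chr7:55768178-55778925, plus strand) and Trem2 (ENSMUSG00000023992, chr17:48346401-48354147, plus strand). Tyrobp (ENSMUSG00000030579, chr7:30413760-30417585, plus strand) encodes DAP12, the membrane adaptor that carries the signal of TREM2. Tmem119 (ENSMUSG00000054675, chr5:113793729-113800516, minus strand) encodes a membrane protein, Aif1 (ENSMUSG00000024397, chr17:35170991-35176068, minus strand) the actin-binding protein IBA1, and Sall1 (ENSMUSG00000031665, chr8:89027235-89044162, minus strand) a zinc finger transcription factor that maintains microglial identity. All 9 are protein-coding. Csf1r overlaps Hmgxb3 on the opposite strand over 873 bp of exon, and 14.9% of the 31-base words of its transcripts also occur in transcripts of other genes, against at most 3.28% for any other marker. P2ry12 lies inside Med12l, on the opposite strand and with no exonic base in common.

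PU.1, an ETS-family transcription factor, is required for the microglial lineage, and its preferred site contains the core GGAA, often within the word GAGGAAGT. RefSeq promoter windows (GRCm38.p6, 250 bases before to 50 after the annotated start) were held for 6 of the 9 markers: Cx3cr1, P2ry12, Aif1, Siglech, Trem2 and Sall1. The windows of 4 markers are shown because, among pairs of these 6 markers, Aif1 with Trem2 and Cx3cr1 with Siglech had the highest correlations of their levels across the samples, of which only that of Aif1 with Trem2 passed the test described further on. Each reads 5′ to 3′ on the strand of its gene, and capitals mark GAGGAA or GGAAGT on either strand, so that a match on the opposite strand reads TTCCTC or ACTTCC.
Aif1 promoter (chr17:35176003-35176302, minus strand): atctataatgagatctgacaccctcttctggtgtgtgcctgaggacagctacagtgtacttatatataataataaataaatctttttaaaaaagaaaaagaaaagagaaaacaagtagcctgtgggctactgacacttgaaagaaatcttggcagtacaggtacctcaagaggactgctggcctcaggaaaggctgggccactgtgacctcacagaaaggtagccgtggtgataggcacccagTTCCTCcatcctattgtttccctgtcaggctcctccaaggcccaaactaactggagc
Trem2 promoter (chr17:48346151-48346450, plus strand): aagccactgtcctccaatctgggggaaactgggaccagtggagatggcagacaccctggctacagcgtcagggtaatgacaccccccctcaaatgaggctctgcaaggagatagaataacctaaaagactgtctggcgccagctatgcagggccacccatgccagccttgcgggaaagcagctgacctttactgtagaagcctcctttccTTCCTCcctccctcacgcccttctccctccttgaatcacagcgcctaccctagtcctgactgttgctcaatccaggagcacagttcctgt
Cx3cr1 promoter (chr9:120068247-120068546, minus strand): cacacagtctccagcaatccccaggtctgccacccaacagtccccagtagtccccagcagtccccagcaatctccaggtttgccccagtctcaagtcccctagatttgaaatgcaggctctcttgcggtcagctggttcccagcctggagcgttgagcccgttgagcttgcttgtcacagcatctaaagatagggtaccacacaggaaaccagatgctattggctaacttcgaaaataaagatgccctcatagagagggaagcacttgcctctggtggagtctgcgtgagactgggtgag
Siglech promoter (chr7:55767934-55768233, plus strand): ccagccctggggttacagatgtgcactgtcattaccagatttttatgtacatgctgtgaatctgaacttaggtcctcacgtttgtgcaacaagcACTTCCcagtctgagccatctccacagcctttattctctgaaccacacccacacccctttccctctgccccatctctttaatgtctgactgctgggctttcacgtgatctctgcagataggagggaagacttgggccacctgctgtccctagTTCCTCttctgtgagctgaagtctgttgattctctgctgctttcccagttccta
The full word GAGGAAGT was in none of the windows of the 6 markers and in 3.20% of all 32851 windows of the RefSeq table, with both strands read. The shorter word GAGGAA was in the windows of Aif1, Trem2 and Siglech and in 28.3% of all windows. GGAAGT was in those of P2ry12 and Siglech, in 1 of the 3 windows of Sall1, and in 23.8% of all windows. Counted by window, each of the 2 short words was in 3 of the 8 windows of the 6 markers. The short words share the letters GGAA and can overlap within a longer match. A match is a run of letters and not a measured binding site.

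Csf1r (chr18:61100598-61132149, plus strand), the receptor on which microglial survival depends, was the most abundant marker. It measured 66.7, 65.3, 67.5, 67.1 and 60.96 CPM in Visudyne samples 3, 6, 9, 12 and 15, against 69.5, 63.4, 60.9, 60.1 and 57.3 CPM in vehicle samples 1, 4, 7, 10 and 13. In 4 of the 5 Visudyne samples the level lay in a narrow band, with Visudyne 15 below it, while Vehicle 1 was the highest of all 10 samples and Vehicle 13 the lowest. The means were 65.5 ± 2.67 CPM with Visudyne and 62.2 ± 4.62 CPM with vehicle (SD, n = 5 each), a log2 fold change of 0.074 with SE 0.055 and a 95% interval of 0.969-fold to 1.14-fold. Without Vehicle 1 the value was 0.12. Without Vehicle 1 and Visudyne 15 together it was 0.14, with an unadjusted edgeR p of 0.00517 and an adjusted p of 0.964. Reads of the overlapping gene Hmgxb3 could contribute where the counting did not use the strand, which is not given in the sources used here.

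Cx3cr1, the fractalkine receptor, measured 38.2, 35.6, 39.5, 39.9 and 31.7 CPM in the Visudyne samples, in order of sample number, and 42.6, 37.2, 36.3, 34.9 and 33.01 CPM in the vehicle samples. The lowest level of all was in Visudyne 15 and the highest in Vehicle 1, and Visudyne 3, 9 and 12 were above the 4 other vehicle samples. The log2 fold change was 0.0068 with SE 0.079, and the interval of 0.892-fold to 1.13-fold bounds the difference on both sides. Its sign turned when any of Visudyne 3, 9 and 12 or Vehicle 10 and 13 was left out, with values between -0.022 and 0.066 when each sample in turn was omitted.

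P2ry12, the purinergic receptor through which microglial processes turn towards sites of nucleotide release, varied most after Tyrobp. It measured 23.4, 18.2, 20.9, 30.02 and 20.7 CPM in the Visudyne samples and 22.6, 24.9, 26.5, 26.5 and 19.1 CPM in the vehicle samples. Visudyne 12 was the highest and Visudyne 6 the lowest of the 10 samples, so that the Visudyne group held both ends of the range. Means of 22.6 ± 4.51 CPM with Visudyne and 23.9 ± 3.11 CPM with vehicle (SD, n = 5 each) gave a log2 fold change of -0.078 with SE 0.13. It was -0.20 without Visudyne 12 and -0.0084 without Visudyne 6. The coefficient of variation over the 10 samples was 15.9%, where counting alone would give 2.74%. It stood at percentile 95.01 among the 2965 genes of a mean CPM within 1.5-fold.

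Tmem119 and Sall1 are regarded as markers that set microglia apart from other macrophages. Tmem119 measured 14.5, 13.4, 13.6, 16.2 and 13.6 CPM in the Visudyne samples and 15.5, 12.7, 13.03, 13.05 and 13.1 CPM in the vehicle samples. The other 4 vehicle samples lay within 12.7 to 13.1 CPM below Vehicle 1, and every Visudyne sample was above those 4. The log2 fold change of Tmem119 was 0.077 (SE 0.072), with 0.13 without Vehicle 1 and 0.032 without Visudyne 12.

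Sall1 measured 12.4, 12.2, 11.2, 13.6 and 12.3 CPM in the Visudyne samples and 11.9, 11.9, 11.4, 10.2 and 12.01 CPM in the vehicle samples. In 4 of 5 Visudyne samples it was above the highest vehicle sample, the most for any marker. Visudyne 9 lay below all vehicle samples except Vehicle 10. The log2 fold change of 0.11 (SE 0.066) had the smallest unadjusted p of the 9 markers, 0.136 by edgeR's quasi-likelihood test, with an adjusted p of 0.9999. Its value lay between 0.068 and 0.14 when each sample in turn was left out.

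Aif1 and Siglech, which encode IBA1 and a receptor coupled to DAP12, did not separate the groups either. Aif1 measured 2.75, 2.65, 2.65, 2.40 and 2.53 CPM in the Visudyne samples and 2.99, 2.65, 2.44, 2.10 and 2.19 CPM in the vehicle samples. The vehicle samples held both the highest and the lowest value, and the Visudyne samples lay between them. Siglech measured 11.1, 9.82, 10.1, 11.6 and 9.31 CPM in the Visudyne samples and 11.4, 10.9, 11.1, 9.73 and 10.01 CPM in the vehicle samples. Its highest and lowest levels were both in Visudyne samples, 12 and 15. The intervals were 0.879-fold to 1.25-fold for Aif1 and 0.874-fold to 1.09-fold for Siglech. With 1 sample left out, the log2 fold change of Aif1 lay between 0.020, without Vehicle 10, and 0.15, without Vehicle 1, and that of Siglech between -0.072, without Visudyne 12, and -0.0011, without Visudyne 15.

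**Figure D1:**
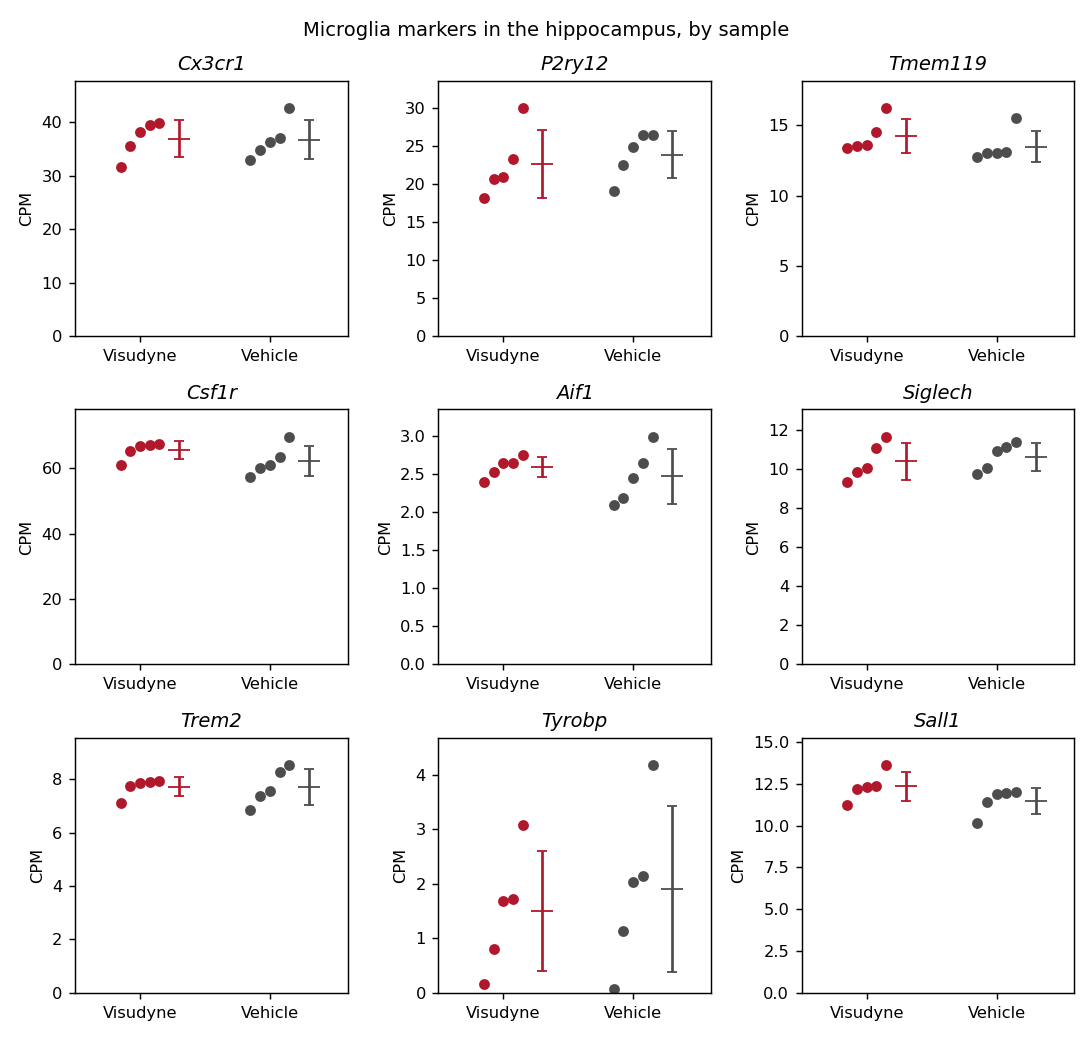
CPM of each marker in the 5 Visudyne samples (left, red) and the 5 vehicle samples (right, grey), with the mean and SD beside the points. The axes start at 0. The groups overlap in all 9 panels, and Tyrobp, from 0.0634 to 4.17 CPM, is the only marker whose points spread over the whole height.

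Trem2 and Tyrobp encode the 2 parts of one signalling unit, the lipid-sensing receptor and the adaptor that carries its signal. Trem2 was among the steadiest markers. It measured 7.74, 7.91, 7.93, 7.09 and 7.86 CPM in the Visudyne samples and 8.51, 8.27, 7.57, 6.86 and 7.38 CPM in the vehicle samples, and its log2 fold change was -0.0028 (SE 0.073) with an interval of 0.894-fold to 1.11-fold. Visudyne 12 stood below the other 4 Visudyne samples, which lay within 7.74 to 7.93 CPM.

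Tyrobp had 47, 123, 10, 171 and 97 estimated counts in the Visudyne samples and 261, 111, 102, 57 and 4 in the vehicle samples. As CPM these were 0.812, 1.72, 0.169, 3.08 and 1.69 with Visudyne and 4.17, 2.14, 2.03, 1.13 and 0.0634 with vehicle. Vehicle 1 was the highest and Vehicle 13 the lowest, 65.8-fold apart, and Visudyne 9 was the second sample with very few counts. The exact Poisson interval of the count was 4.80 to 18.4 in Visudyne 9, 230 to 295 in Vehicle 1 and 1.09 to 10.2 in Vehicle 13, so that counting error alone left Vehicle 1 clear of both low samples. The means of 1.49 ± 1.10 CPM with Visudyne and 1.91 ± 1.52 CPM with vehicle (SD, n = 5 each) gave a log2 fold change of -0.35 with SE 0.74. The value depended on single samples. It turned positive, at 0.17, without Vehicle 1, and was between -0.78, without Visudyne 12, and -0.066, without Visudyne 9, when any other sample was left out. It was also positive with limma voom (0.047) and with a covariate for sample number (0.13).

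The spread of Tyrobp was set against what counting, abundance and length would give. Its coefficient of variation was 73.6% in Visudyne samples and 79.6% in vehicle samples, where counting alone would give 10.6% and 9.67% in the same groups. Over all 10 samples it was at percentile 98.9 among the 1657 genes of a like mean. With 564 bp of exon it is the shortest of the markers. Among 42 protein-coding genes under 800 bp of exon and of a like mean, the median coefficient of variation was 19.4%, and Tyrobp was at percentile 90.5. None of the 666 different 31-base words of its transcripts occurs in a transcript of another gene. Fcer1g, the other small adaptor with an immunoreceptor tyrosine-based activation motif that microglia use, had a coefficient of variation of 12.7%, at 3.40 ± 0.350 CPM in Visudyne and 3.06 ± 0.422 CPM in vehicle samples (SD, n = 5 each).

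Per length, the receptor and its adaptor stood in no fixed ratio. The level of Trem2 divided by that of Tyrobp, both per kilobase of exon, was 4.70, 2.27, 23.2, 1.13 and 2.29 in the Visudyne samples and 1.01, 1.90, 1.84, 3.00 and 57.5 in the vehicle samples. Between 1.01 and 4.70 lay 8 of the 10 samples, and Visudyne 9 and Vehicle 13 were far outside. In those samples Trem2 itself was at 7.93 and 7.38 CPM, within the range of the others. The source of the variation of Tyrobp was not tested.

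**Figure D2:**
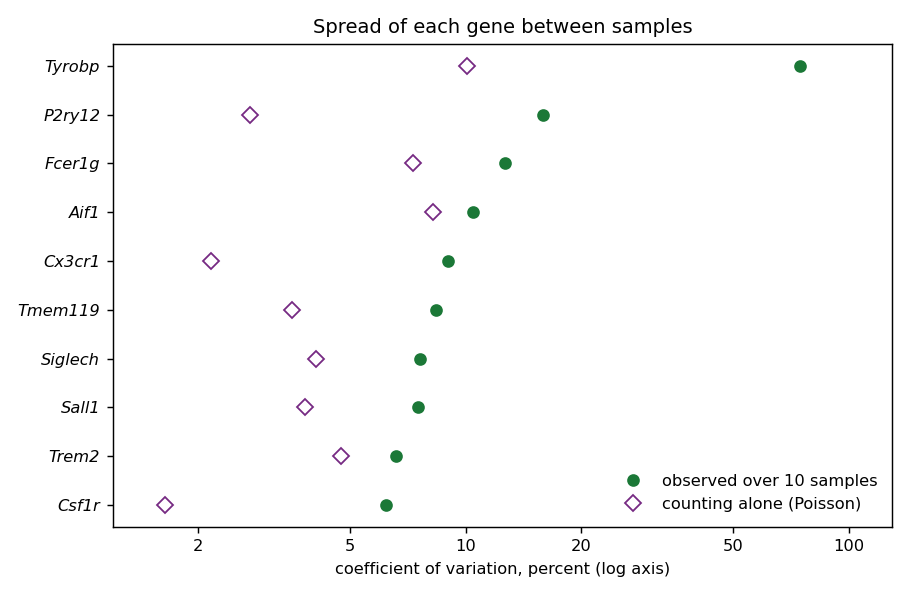
Coefficient of variation over the 10 samples (filled circles) and the part that counting alone would give (open diamonds) for the 9 markers and Fcer1g, in percent on a log axis. Tyrobp stands alone at 74.6%, while the other 8 markers lie between 6.19% and 15.9%, and Aif1 and Trem2 lie nearest to their counting limits.

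Spread and counting limit differed among the other 8 markers. Aif1, with 106 to 190 counts per sample, varied by 10.5% where counting gives 8.23%, and Trem2, with 347 to 567 counts, by 6.58% where counting gives 4.72%. Csf1r and Cx3cr1 had at least 1766 counts in every sample, and their variation of 6.19% and 8.98% was well above the counting limits of 1.64% and 2.16%. Of the 9 markers, Tyrobp and P2ry12 had the highest percentiles for variation among genes of like abundance, at 98.9 and 95.01. Cx3cr1 followed at 77.3, while Trem2 was at percentile 18.3 and Aif1 at 19.6.

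Compared per length of exon, with RPKM computed from the TMM-scaled CPM, the markers spanned a 13.1 to 2.26 RPKM range of mean levels over the 10 samples. The order was Csf1r at 13.1, P2ry12 at 9.53, Cx3cr1 at 8.19, Trem2 at 6.75, Tmem119 at 6.18, Siglech at 3.19, Tyrobp at 3.01, Aif1 at 2.51 and Sall1 at 2.26 RPKM. Of neighbours in this order, only Tmem119 and Siglech had ranges that did not overlap. Csf1r was above P2ry12 and Cx3cr1 above Trem2 in 10 of 10 samples each, while P2ry12 exceeded Cx3cr1 in 7 and Siglech exceeded Tyrobp in 4. The same order was obtained with the longest transcript of each gene in the basic GENCODE annotation, which leaves out some transcripts, in place of all its exons. For Trem2 that transcript has 1088 bp. The full GENCODE vM21 set also holds a Trem2 transcript of 4784 bp, and the order with that length was not computed. Within each group the order of the 3 most abundant was the same, with Csf1r at 13.4 ± 0.546, P2ry12 at 9.27 ± 1.85 and Cx3cr1 at 8.21 ± 0.754 RPKM in Visudyne samples and at 12.7 ± 0.945, 9.79 ± 1.27 and 8.17 ± 0.804 RPKM in vehicle samples (SD, n = 5 each).

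**Figure D3:**
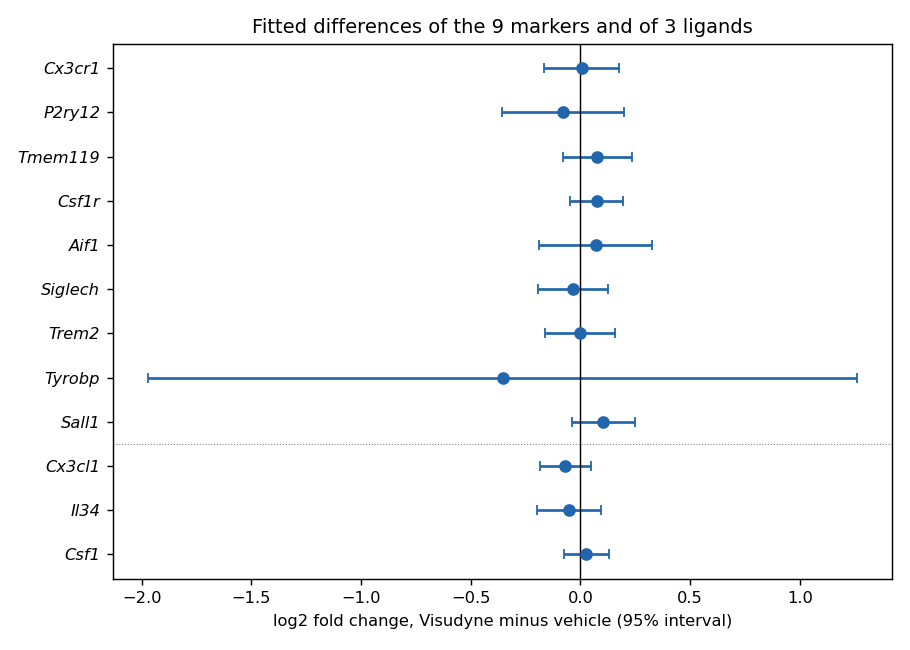
Log2 fold change of Visudyne over vehicle for the 9 markers (above the dotted line) and 3 ligands of their receptors (below it), from edgeR's quasi-likelihood fit, with 95% intervals. All intervals include 0, and that of Tyrobp, from -1.97 to 1.26, is far wider than the others.

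The ligands that reach these receptors from other hippocampal cells were also close to level. Cx3cl1, the mainly neuronal ligand of CX3CR1, measured 341 ± 21.7 CPM in Visudyne samples and 357 ± 17.9 CPM in vehicle samples (SD, n = 5 each), a log2 fold change of -0.068 with SE 0.054. Il34, the neuronal ligand of CSF1R, measured 19.2 ± 1.38 CPM with Visudyne and 19.9 ± 1.57 CPM with vehicle. Csf1, its glial counterpart, measured 18.6 ± 0.796 CPM with Visudyne and 18.3 ± 0.612 CPM with vehicle. Per length, Cx3cl1 stood at a mean of 98.8 RPKM and its receptor at 8.19 RPKM. Il34 had 10.7 and Csf1 3.91 RPKM beside 13.1 RPKM of Csf1r. Apoe and Clu, which encode apolipoproteins that bind TREM2, completed the ligand list, in which 3 of 5 genes had positive and 2 negative differences (median log2 fold change 0.027), none with an unadjusted p under 0.05 by edgeR.

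The 9 markers tended to be high or low in the same samples. Pairs of other genes were not measured, so whether this is particular to the markers was not tested. Of the 36 pairs of markers, 34 had a positive Pearson correlation of log2 CPM across the 10 samples, with a median r of 0.384, and 2 pairs passed Benjamini-Hochberg adjustment of the permutation p of r over the 36 pairs. Aif1 and Trem2 had r = 0.882 (permutation p = 0.00108, adjusted p = 0.0248) and Spearman's rho = 0.818 (permutation p = 0.00623, adjusted p = 0.0748), and r = 0.827 without the 2 samples farthest from the median of Aif1. Cx3cr1 and Csf1r had r = 0.866 (permutation p = 0.00138, adjusted p = 0.0248) and rho = 0.867 (permutation p = 0.00219, adjusted p = 0.0686), and r = 0.897 without the 2 farthest samples. By rho, 0 of the 36 pairs passed the adjustment. Within the 5 Visudyne and the 5 vehicle samples r was 0.753 and 0.961 for Aif1 with Trem2, and 0.977 and 0.994 for Cx3cr1 with Csf1r.

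Cx3cr1 and Siglech, the other pair whose promoters are printed above, had r = 0.770 (permutation p = 0.0104, adjusted p = 0.0933) and rho = 0.842 (permutation p = 0.00381, adjusted p = 0.0686), and r = 0.597 without the 2 farthest samples. The negative pairs both involved P2ry12, with Trem2 at r = -0.427 (rho = -0.430, permutation p of r 0.218, adjusted p = 0.467) and with Aif1 at r = -0.213 (rho = -0.370, permutation p of r 0.553, adjusted p = 0.669). Each marker was also set against the mean of the other 8, here after centring log2 CPM on the group means, unlike for the pairs. Csf1r, Siglech and Cx3cr1 followed the rest most closely, at r = 0.829, 0.827 and 0.793, and P2ry12 and Trem2 least, at 0.297 and 0.330.

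**Figure D4:**
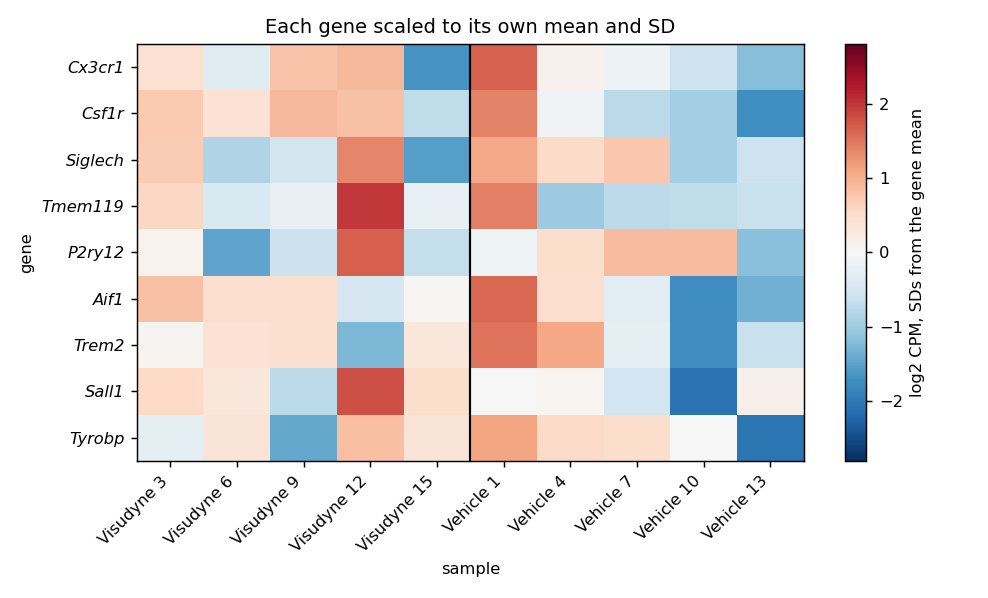
Log2 CPM of each marker in each sample, in SDs from the mean of that marker over the 10 samples, with the Visudyne samples left of the black line and the vehicle samples right of it. Vehicle 1 is above the mean for Cx3cr1, Csf1r, Siglech, Tmem119, Aif1, Trem2 and Tyrobp, and Visudyne 12 is high for Tmem119, Sall1 and P2ry12 but low for Trem2.

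The shared variation of the markers, with group means left in, was set beside 4 measures of the whole library. None of the 4 passed adjustment by r and 2 did by rho. The mean scaled profile of the 9 markers had r = -0.652 (permutation p = 0.0418, adjusted p = 0.0836 over 4 library measures) and rho = -0.830 (permutation p = 0.00424, adjusted p = 0.0170) with the TMM factor, and r = -0.800 without the 2 samples farthest from the median factor. The share of mitochondrial counts had r = 0.525 (rho = 0.636, permutation p of r 0.122, adjusted p = 0.163) and the total count r = 0.280 (rho = 0.164, permutation p of r 0.434, adjusted p = 0.434). Within the Visudyne and the vehicle samples (n = 5 each), r was -0.955 and -0.901 for the TMM factor. In the same groups it was 0.891 and 0.826 for the mitochondrial share, and -0.073 and 0.402 for the total count. CPM values are divided by the TMM factor, so profile and factor are not independent. With totals in place of TMM-scaled totals the coefficient of variation in Visudyne samples fell to 5.26% for Tmem119, against 8.33% with TMM, and to 2.60% for Csf1r, against 4.07%, while for Trem2 it was 7.88%, against 4.59%. The profile had r = -0.721 (permutation p = 0.0188, adjusted p = 0.0752) and rho = -0.758 (permutation p = 0.0153, adjusted p = 0.0306) with the first principal component of all genes, which held 41.4% of the variance. That relation rested on few samples, with r = -0.298 without Vehicle 1 and Visudyne 12. It had r = -0.974 within the Visudyne samples and -0.699 within the vehicle samples. Vehicle 1 and Visudyne 15 were the ends of this component, and without both the median log2 fold change of the 9 markers was 0.12, with 8 of 9 positive and none called. Without both, 3 of the 9 had an unadjusted p under 0.05 by edgeR. The share of all genes at that level in this fit was not counted, and the 2 samples were chosen after the data were seen. In the order of their sample numbers, the mean scaled profile fell throughout in the vehicle samples (1.07, 0.244, -0.0648, -0.870 and -1.02). In the Visudyne samples it did not (0.418, -0.126, -0.0990, 0.852 and -0.402). The relation of the profile to sample number was not tested. The part of library composition in the variation of the markers was not tested either.

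The mean profile of the 9 markers was next taken after centring on the group means, and the log2 CPM of each gene was centred likewise. Among 12972 genes whose log2 CPM averaged 1 or more, 6 that followed this profile most closely were named. They were Tti1 (r = 0.972), Acads (0.966), Arsa (0.961), Ifit1bl1 (0.959), Apod (0.958) and H2-T22 (0.957) over the 10 samples. Spearman's rho was between 0.939 and 0.988, and r without the 2 farthest samples between 0.907 and 0.982. Arsa encodes a lysosomal sulfatase, Acads a mitochondrial dehydrogenase of short fatty acids and Apod a lipid carrier, and none of the 6 was called by edgeR (log2 fold changes between -0.034 and 0.071, adjusted p = 0.9999 each). Tti1, a component of a chaperone complex for large kinases, measured 17.8, 17.1, 17.4, 18.3 and 17.4 CPM in the Visudyne samples and 19.5, 18.2, 17.98, 17.2 and 17.1 CPM in the vehicle samples. Vehicle 1 was its highest sample, as it was for Csf1r, Cx3cr1, Aif1, Trem2 and Tyrobp.

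The wider homeostatic programme was described with 28 further genes, of which P2ry13 and Gpr34 (nucleotide and lysophospholipid receptors) and C1qa, C1qb and C1qc (complement subunits) are typical. None passed the edgeR test. Positive differences were found for 20 and negative ones for 8, with a median log2 fold change of 0.03. Over all genes tested, 51.1% were positive. Ptprc, the leukocyte phosphatase CD45, was the 1 gene of the 28 (3.57%) with an unadjusted p under 0.05 (0.0138), against 1.70% of all genes, and the 1 gene with groups that did not overlap, against 0.435% of all genes. It measured 3.49, 3.68, 3.85, 3.68 and 4.496 CPM in the Visudyne samples and 3.18, 3.05, 3.44, 3.16 and 3.12 CPM in the vehicle samples, a log2 fold change of 0.27 with SE 0.093 and an adjusted p of 0.9999. Every Visudyne sample was above every vehicle sample, with Visudyne 15 the highest. Cd33, a sialic acid-binding receptor at 0.675 ± 0.207 CPM in Visudyne and 0.524 ± 0.160 CPM in vehicle samples, had a log2 fold change of 0.36 with SE 0.29.

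Transcription factors of microglia and the signals that maintain them were not called either. Of 12 transcription factors, 7 had positive and 5 negative differences (median log2 fold change 0.041). Irf8 measured 3.14 ± 0.278 CPM in Visudyne and 2.85 ± 0.253 CPM in vehicle samples (SD, n = 5 each). Mef2c, which neurons also express, varied from sample to sample, at 10.5, 1.87, 1.18, 7.81 and 3.80 CPM with Visudyne and 6.36, 7.21, 10.9, 9.84 and 5.51 CPM with vehicle. Visudyne 6, 9 and 15 were below every vehicle sample, and Visudyne 3 and 12 were within the vehicle range. Of 11 genes of TGF-beta and contact signalling, which sustain the homeostatic state, 5 were positive and 6 negative (median -0.020), and Tgfb1 had the smallest p (1.23 ± 0.226 CPM with Visudyne, 0.976 ± 0.242 CPM with vehicle, log2 fold change 0.33, SE 0.20, adjusted p = 0.9999 by edgeR). Cd47, a contact signal against phagocytosis, had a log2 fold change of 0.087 (SE 0.069) and Tgfb2 one of -0.063 (SE 0.084). Of 10 purine, chemokine and complement receptors, 5 were positive and 5 negative (median -0.024), with C3ar1 at 2.12 ± 0.213 CPM in Visudyne and 1.88 ± 0.111 CPM in vehicle samples.

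The signalling partners of Tyrobp were described next. All 13 tested genes of DAP12-coupled receptors and tyrosine-based signalling had positive differences, where 51.1% of all genes tested were positive. The median log2 fold change was 0.067 and the smallest 0.0091. None passed edgeR's test, and 1 of 13 (7.69%, against 1.70% of all genes) had an unadjusted p under 0.05. This was Pik3ap1, an adaptor for phosphoinositide 3-kinase, at 1.97, 2.30, 1.65, 1.84 and 1.85 CPM in the Visudyne samples and 1.47, 1.74, 1.25, 1.01 and 1.09 CPM in the vehicle samples (log2 fold change 0.55, SE 0.17, unadjusted p = 0.00667, adjusted p = 0.9999). Only the lowest Visudyne sample, Visudyne 9, was under the highest vehicle sample. Vav1 (0.15, SE 0.10) and the kinase gene Lyn (0.094, SE 0.078) followed.

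Genes of the disease-associated state were set beside the homeostatic markers. They were measured in whole tissue, and the cells that made their transcripts were not identified. Of 17 tested, 15 had positive and 2 negative differences (median log2 fold change 0.042), where 51.1% of all genes tested were positive. An unadjusted p under 0.05 was found for 4 (23.5%, against 1.70% of all genes), and none passed edgeR's adjusted test. Lyz2, the lysozyme of myeloid cells, measured 6.31, 6.05, 5.97, 5.66 and 5.75 CPM in the Visudyne samples and 4.90, 4.35, 3.87, 3.24 and 2.65 CPM in the vehicle samples, a log2 fold change of 0.65 with SE 0.14 and an adjusted p of 0.768. The groups did not overlap, and the Visudyne samples were close together. Groups without overlap were found for 2 of the 17 genes (11.8%, against 0.435% of all genes). Lyz2 passed with DESeq2 (adjusted p = 0.0284) and in edgeR with a covariate for sample number (adjusted p = 0.0277). Ch25h, which makes 25-hydroxycholesterol, measured 0.466, 0.502, 0.422, 0.505 and 0.436 CPM with Visudyne and 0.160, 0.309, 0.199, 0.277 and 0.253 CPM with vehicle, also without overlap, at under 1 CPM in every sample. Spp1, which encodes osteopontin, had a log2 fold change of 0.90 (SE 0.34, adjusted p = 0.9999 by edgeR) with overlapping groups. Lgals3 (0.64, SE 0.28) was the other gene with an unadjusted p under 0.05. The remaining tested genes of the list lay between -0.030 (Ctsb, SE 0.064) and 0.37 (Itgax, SE 0.39). Among them Axl had a log2 fold change of 0.0084 (SE 0.063) and Lpl of 0.042 (SE 0.084).

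Markers of other immune cells were measured beside these values. All 14 genes of the border macrophages of the meninges and vessels were detected. Positive differences were found for 13 (median log2 fold change 0.25), where 51.1% of all genes tested were positive. The sum of the 14 ranged from 31.2 to 44.2 CPM in Visudyne samples and from 24.3 to 38.1 CPM in vehicle samples. H2-Eb1 and Cd74, of the class II antigen presentation machinery, did not overlap between the groups, which makes 2 of the 14 genes (14.3%, against 0.435% of all genes), and 3 of 14 (21.4%, against 1.70%) had an unadjusted p under 0.05. Cd74 measured 4.34, 5.10, 4.24, 3.35 and 3.35 CPM with Visudyne and 3.10, 2.24, 0.814, 1.07 and 0.539 CPM with vehicle (log2 fold change 1.39, SE 0.38, adjusted p = 0.9999 by edgeR). The log2 fold change of H2-Eb1 was 1.198 (SE 0.29) and that of H2-Ab1 1.24 (SE 0.42). With Cd74, these class II genes were the 3 with an unadjusted p under 0.05. The genes of the list outside class II lay between -0.42 (Pf4, SE 0.41) and 0.41 (Ms4a7, SE 0.27). Among them Mrc1 had a log2 fold change of 0.16 (SE 0.23) and Cd163 of 0.15 (SE 0.18). Of 12 markers of monocytes, neutrophils and lymphocytes, 7 averaged under 0.1 CPM, Ly6c2 and Cd3e among them, and the sum was 1.91 to 3.87 CPM with Visudyne and 1.45 to 2.33 CPM with vehicle. Of the 3 that could be tested, Ccr2 of monocytes had an unadjusted p under 0.05, at 1.19, 1.58, 1.18, 1.01 and 1.603 CPM with Visudyne and 0.655, 1.02, 1.09, 0.593 and 0.982 CPM with vehicle (log2 fold change 0.60, SE 0.22, adjusted p = 0.9999 by edgeR). In 4 of 5 Visudyne samples Ccr2 was above all vehicle samples.

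Genes of meningeal fibroblasts were measured as well. All 10 had positive differences (median log2 fold change 0.40), where 51.1% of all genes tested were positive. Of the 10, 5 had an unadjusted p under 0.05 (50%, against 1.70% of all genes) and 4 did not overlap between the groups (40%, against 0.435%). Col1a1, a collagen, was the 1 gene of the 10 that was called, at 19.0 ± 2.47 CPM in Visudyne and 8.42 ± 2.30 CPM in vehicle samples (SD, n = 5 each, log2 fold change 1.18, SE 0.16, adjusted p = 0.0485 by edgeR). Col3a1 had a log2 fold change of 1.36 (SE 0.26, adjusted p = 0.430 by edgeR). Mgp, Col1a2 and Bgn were the others under an unadjusted p of 0.05 by edgeR. Igf2, Dcn, Slc6a13, Ptgds and Lum were not, at log2 fold changes between 0.039 (Lum, SE 0.19) and 0.29 (Igf2, SE 0.24). The list summed to 371 to 669 CPM with Visudyne and 211 to 573 CPM with vehicle. Most of this was Ptgds, at 311 ± 116 CPM with Visudyne and 279 ± 123 CPM with vehicle (log2 fold change 0.16, SE 0.30). Leaving out sample 3, 6 or 7 ended every call in the table, that of Col1a1 included. Ptprc and Lyz2 are made by border macrophages as well as microglia. The part of border macrophages, monocytes or adhering meninges in the values of Ptprc, Lyz2, Ch25h, Spp1, Lgals3 and Cd74 was not tested. Among inflammatory genes, Tnf, Il6, Ccl2, Ccl4 and Nos2 averaged under 0.1 CPM, and of the 5 of 12 that could be tested 2 were positive (Cxcl10 0.52, SE 0.46, and Ccl12 0.32, SE 0.30), 3 negative (Nlrp3 -0.26, SE 0.20, Il1a and Ptgs2) and none under an unadjusted p of 0.05 by edgeR.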

How the data were processed

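Total RNA of the whole hippocampus was isolated with a column kit and turned into stranded total RNA libraries, per the labels' protocols. Estimated counts for each Ensembl gene are what the authors deposited; the submitters' processing notes list FastQC, Salmon and mm10. The use of strand, like any version or annotation, is not given in the sources used here. Deposited values are whole numbers, so rounding them changed none. Symbols matched 28564 of 28871 identifiers, and the 307 others held 0.134% of the counts.

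The 10 samples were grouped by their titles. edgeR 4.0.16 (R 4.3.3) fitted all genes left by its default filter with TMM factors and a quasi-likelihood F-test, Benjamini-Hochberg threshold 0.05; SEs came from the F statistics and 95% intervals from their degrees of freedom. RPKM was computed from CPM and the union of exons in the basic GENCODE annotation. Correlations used log2 CPM with a prior count of 2 and two-sided permutation tests of 100000 resamples (scipy 1.17.1). Poisson intervals cover counting error only. The fit was tested on simulated counts.

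The markers and gene lists were chosen with earlier results of these data known. Named were the 9 markers, 3 ligands, the 3 genes of smallest p in each microglia list and in the border macrophage list, and the 6 genes most like the mean profile; other genes were chosen after their values were seen. Alternatives were other scaling factors (relative log expression, upper quartile), no or a stricter filter, removal of mitochondrial and ribosomal RNA genes, DESeq2 1.42.0, limma 3.58.1 voom with and without sample quality weights, the sample number as covariate, and each sample left out. Leaving out both ends of the first principal component, leaving Tyrobp out, and transcript lengths were added after seeing the data. No column of the table was unused. A few genes that the naming rule gives are not reported here.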

Additional observations from a re-analysis of the deposited data

Results flagged for a closer look

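In groups of 5 samples, a sample was noted where its gap to the nearest other sample exceeded Dixon's critical value of 0.71 of the range of the group. This held for 8 of 90 groups examined, where chance gives about 1 in 20. Among the markers, Tmem119 in Vehicle 1 measured 15.5 CPM, against 12.7 to 13.1 CPM in the other vehicle samples, and Trem2 in Visudyne 12 measured 7.09 CPM, against 7.74 to 7.93 CPM in the other Visudyne samples. The level of Trem2 over that of Tyrobp per length was 23.2 in Visudyne 9, against 1.13 to 4.70 in the other Visudyne samples, and 57.5 in Vehicle 13, against 1.01 to 3.00 in the other vehicle samples. Apoe in Vehicle 1 measured 887 CPM, against 657 to 707 CPM. Lyn in Visudyne 12 measured 8.62 CPM, against 6.58 to 7.15 CPM. Adora2a, an adenosine receptor also made by neurons, measured 0.819 CPM in Visudyne 15, against 0.586 to 0.639 CPM. Spp1 in Visudyne 3 measured 14.5 CPM, against 6.58 to 8.61 CPM.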

How the results depend on the processing

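No marker was called in any of 20 other settings, with edgeR, DESeq2 or limma voom, and the lowest adjusted p of any marker was 0.946. An unadjusted p under 0.05 was reached by 3 markers without Vehicle 1 and Visudyne 15. It was reached by 1 marker each without Vehicle 1, with the covariate, and with voom and quality weights. The share of all genes at that level was not counted in these settings. P2ry12, Tmem119, Csf1r, Aif1 and Sall1 kept their direction in all 20 other settings. Over all genes 4 were called, against 2 with upper-quartile factors, 2 without mitochondrial and ribosomal RNA genes, 17 with DESeq2, 13 with voom and quality weights, 19 with the sample number as covariate, 2 without Vehicle 1 and Visudyne 15, and 0 to 5 with 1 sample left out. The median of the markers (0.0068) ranged from -0.014 to 0.12 with 1 sample left out and was 0.12 without Vehicle 1 and Visudyne 15 and 0.090 with the covariate. That omission turned Siglech (0.031), Trem2 (0.031), Tyrobp (0.13), Il34 (0.016), Tti1 (0.0044) and H2-T22 (0.047) positive. Trem2 was also positive with upper-quartile factors (0.0055), the stricter filter (0.011), voom with quality weights (0.031) and the covariate (0.026), Tyrobp with voom (0.047) and the covariate (0.13), and H2-T22 with the stricter filter (0.0010) and the covariate (0.017). With 1 sample left out, the ranges that crossed 0 were -0.022 to 0.066 for Cx3cr1, -0.039 to 0.035 for Trem2, -0.78 to 0.17 for Tyrobp, -0.060 to 0.10 for Ifit1bl1 and -0.037 to 0.026 for H2-T22. Cd74 passed with voom and quality weights (adjusted p = 0.0462), and with the covariate Cd74 and H2-Eb1 did (adjusted p = 0.0398 each). On plain totals the coefficient of variation moved for Tmem119 with Visudyne (5.26%), Csf1r with Visudyne (2.60%) and with vehicle (4.68%), Siglech with Visudyne (5.17%) and Trem2 with Visudyne (7.88%). The causes were not tested. Tyrobp and Aif1 had the lowest counts of the markers, with as few as 4 and 106 in a sample. Over the 10 samples counting alone would give a coefficient of variation of 10.1% for Tyrobp and 8.23% for Aif1. The observed values were 74.6% and 10.5%. No paired analysis was possible because the labels give the groups no sample number in common.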

Other observations

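Without Tyrobp in the mean profile, the genes most like the markers were Kcnk13, Arsa, Ifit1bl1, Jam3, Tti1 and Aif1l, so that 3 of the 6 were as before. Kcnk13, which encodes the potassium channel THIK-1 of microglia, followed the 8 other markers with r = 0.970 (rho = 0.927, and r = 0.945 without the 2 farthest samples) over the 10 samples. It measured 5.62 ± 0.760 CPM in Visudyne samples and 5.50 ± 0.922 CPM in vehicle samples (SD, n = 5 each), a log2 fold change of 0.030 with SE 0.13 and an adjusted p of 0.9999 by edgeR's quasi-likelihood test. It stood in none of the lists used here and is named after its values were seen.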
